A study of Mus musculus with 9 samples.

Results

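The genes described here are 8 components of the signalling chain that the interleukin-6 (IL-6) family of cytokines uses in the liver: the receptor chains Lifr, Il6ra, Osmr and Il6st, the Janus kinases Jak1 and Jak2, the transcription factor Stat3 and its feedback inhibitor Socs3. They were selected by gene symbol, and all 8 were found among the 23444 rows of each table. The list was drawn up with earlier results of these data known, among them the low level of Lifr in aged livers, so the differences of Lifr from young livers are described here without a test. All libraries came from livers of C57Bl6 mice, in 3 groups of 3: young livers from mice aged 2 months without treatment, aged livers from mice aged 20 to 22 months without treatment, and treated livers from mice aged 20 to 22 months that ate chow with PD-0332991 over 2 weeks, at a dose that the labels write as 450 mg/k. PD-0332991 is palbociclib, an inhibitor of the kinases CDK4 and CDK6, and the study concerns Cdk4 in the steatosis (fat storage) of old livers, by its title. Whether replicates were separate mice is not stated in the labels, nor is the sex, and no young mice received the drug.

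Cytokines of this family act on hepatocytes by joining a receptor chain that is specific for the ligand to gp130, the signalling chain encoded by Il6st. Janus kinases bound to the chains then phosphorylate STAT3, which enters the nucleus and switches on acute phase genes such as those of serum amyloid A and fibrinogen, together with Socs3, whose product binds gp130 and the kinases and stops the signal. Transcript levels do not report the phosphorylation on which the chain depends.

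The unit is TPM, a share of the quantified transcripts that is corrected for transcript length, so levels can be set side by side between genes, while the depth of the libraries is unknown. In each library the listed genes held 53.1% to 57.6% of the full TPM scale. Summed markers of hepatocytes lay between 21441 and 27309 TPM in all 9 libraries, although albumin itself was listed at 0 throughout. Differences were tested with limma on log2(TPM + 0.5) over 10161 genes that reached 1 TPM in at least 3 libraries, and a gene was called where the Benjamini-Hochberg adjusted p over all of them was below 0.05. Treated against young livers gave 263 genes higher and 436 lower. After median-of-ratios scaling, which moved the median log2 fold change of all genes in this comparison from -0.10 to 0.02, the numbers were 386 and 228, and after quantile normalization 308 and 310. Treated against aged livers gave 62 higher and 85 lower, and 119 and 55 with median-of-ratios scaling or 88 and 56 with quantile normalization. All 8 genes of the chain passed the filter on low values. Osmr passed it with only 3 libraries, 1 aged and 2 treated.

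Lifr was the most abundant of the chain's transcripts in every library and Osmr the least (the plot of levels by library). In young livers the mean levels followed the order Lifr (101 TPM), Stat3 (15.5 TPM), Jak1 (14.0 TPM), Il6st (11.5 TPM), Socs3 (3.92 TPM), Il6ra (3.15 TPM), Jak2 (2.58 TPM) and Osmr (0.388 TPM). The ranges of Stat3 and Jak1 met in young livers, as did those of Socs3, Il6ra and Jak2, while every Il6st value lay just below every Jak1 value. In treated livers Stat3 (39.3 TPM) lay nearer to Lifr (59.3 TPM), and Socs3 (18.2 TPM) stood above Il6st (15.5 TPM) and Jak1 (14.8 TPM) in mean level. The lowest treated Socs3 value of 15.2 TPM lay within the range of Il6st in the same group.

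**Figure D1:**
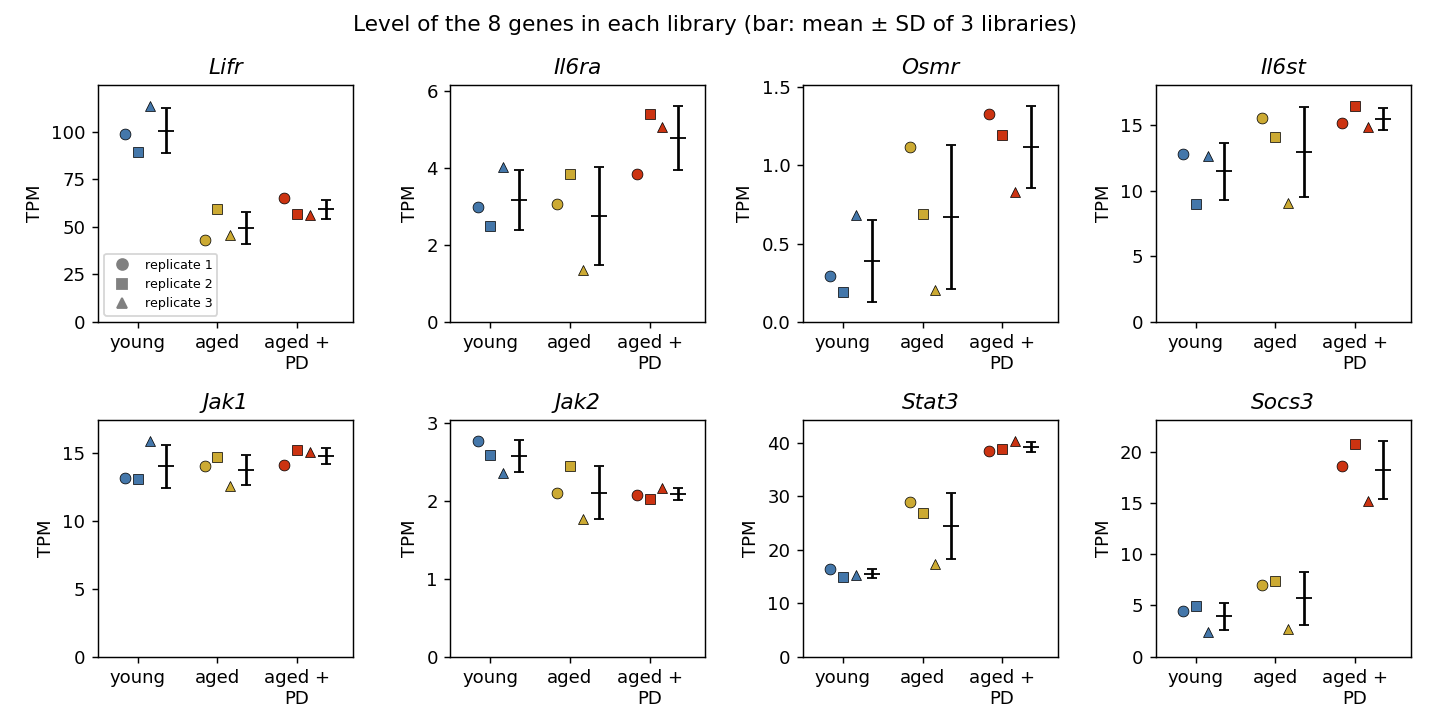
TPM of each gene of the chain (vertical axes, each starting at 0) in the young, aged and treated (aged + PD) libraries, with 1 symbol per replicate number and the mean ± SD of 3 libraries beside them. Lifr is lower in both aged groups than in young livers, Stat3 is higher in each group than in the one to its left, and Socs3 is highest in the treated libraries.

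Lifr encodes the receptor chain of leukemia inhibitory factor, which pairs with gp130 and also serves cardiotrophin and oncostatin M (GRCm38.p6 chromosome 15, 7090610 to 7197489). Young replicates 1, 2 and 3 read 99.0, 89.7 and 113 TPM. Aged replicates 1, 2 and 3 read 43.3, 59.2 and 45.9 TPM. Treated replicates 1, 2 and 3 read 65.0, 57.0 and 56.0 TPM. Every young library lay above all 6 others, while the aged and treated ranges overlapped. Group means were 101 ± 11.98 TPM in young, 49.5 ± 8.53 TPM in aged and 59.3 ± 4.95 TPM in treated livers (errors after group means are SDs over 3 libraries throughout), so the older groups stood at 0.491 and 0.589 of the young mean. On the log2 scale the differences from young livers were -1.02 ± 0.13 (SE) for aged and -0.75 ± 0.13 for treated livers. Over 17 other ways of processing the data the first lay between -1.16 and -0.94 and the second between -0.83 and -0.63. The difference between treated and aged livers did not pass the test (log2 fold change 0.27, 95% interval -0.02 to 0.56, limma adjusted p = 0.307). Whole tissue was sequenced, so fewer cells of a type and less RNA per cell cannot be told apart, here or below. The mouse gene also gives rise to a soluble form of the receptor, which these values per gene do not separate from the membrane form.

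Il6ra, the chain that binds IL-6 itself (chromosome 3, 89869324 to 89913196), did not share the pattern of Lifr. It read 2.98, 2.47 and 4.01 TPM in young, 3.05, 3.83 and 1.35 TPM in aged and 3.84, 5.40 and 5.06 TPM in treated replicates 1, 2 and 3. The lowest treated value lay above the highest aged one by a very small margin, and the young range reached into the treated one. The treated mean was 1.74 times the aged mean, which did not pass the test (log2 fold change 0.77 ± 0.29, limma adjusted p = 0.195). That difference was 0.41 without aged replicate 3, the library with the lowest value. With age the log2 fold change was -0.24 (95% interval -0.87 to 0.40, limma adjusted p = 0.758), and it ranged from -0.49 without aged replicate 2 to 0.12 without aged replicate 3.

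Osmr, the oncostatin M receptor chain (chromosome 15, 6813568 to 6874968), was near the lower limit of the tables. Young replicates 1, 2 and 3 read 0.291, 0.191 and 0.682 TPM, aged ones 1.12, 0.688 and 0.204 TPM, and treated ones 1.33, 1.19 and 0.828 TPM. All treated libraries lay above all young ones, and the aged libraries spread over both ranges. The difference of treated from young livers, a log2 fold change of 0.89 ± 0.31, did not pass the test (limma adjusted p = 0.106). It passed without aged replicate 3 (adjusted p = 0.0305), with quantile normalization (0.0466), and in a fit on the 6 young and treated libraries (0.0287). Osmr was tested only through aged and treated libraries that reached the filter of 1 TPM, while every young value lay below 1 TPM. A gene admitted in that way leans toward a rise from young livers, so these passes are no support for one.

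Il6st, which encodes the shared chain gp130 (chromosome 13, 112464070 to 112506860), varied less. It read 12.8, 8.95 and 12.7 TPM in young, 15.6, 14.1 and 9.06 TPM in aged and 15.1, 16.4 and 14.8 TPM in treated replicates 1, 2 and 3. The treated libraries lay above the young ones, and the aged libraries overlapped both groups. No difference passed the test. The log2 fold change was 0.15 with age (95% interval -0.28 to 0.57), 0.28 for treated against aged (-0.14 to 0.71) and 0.43 for treated against young (0.01 to 0.85), with limma adjusted p of 0.780, 0.462 and 0.193. The Il6st age difference was -0.01 when young replicate 2 was dropped, -0.0001 when aged replicate 1 was, and 0.38 when aged replicate 3 was (limma adjusted p = 0.166), and in that last fit treated against aged gave 0.06. Treated against young gave 0.27 without young replicate 2.

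The products of Lifr and Il6st pair in a receptor, and the ratio of their transcripts set young livers apart from the older ones, as Lifr did. Within the groups the ratio did not follow the order of Lifr. Lifr stood at 7.73, 10.02 and 8.96 times the TPM of Il6st in young replicates 1, 2 and 3, at 2.78, 4.19 and 5.07 times in aged ones and at 4.30, 3.47 and 3.78 times in treated ones. The young ratios lay above all others, and the ranges of aged and treated livers overlapped. These ratios share the values of Lifr and are given without a test.

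The 2 Janus kinases, which sit on the inner part of the receptor chains, did not pass the test in any comparison. Jak1 (chromosome 4, 101151974 to 101265282) lay between 12.5 and 15.9 TPM in all 9 libraries. Its log2 fold change was -0.02 with age (95% interval -0.27 to 0.22), 0.10 for treated against aged (-0.14 to 0.35) and 0.08 for treated against young livers (-0.16 to 0.32), with limma adjusted p from 0.659 to 0.945. The age difference was 0.06 without young replicate 3 and 0.04 without aged replicate 3. Jak2 (chromosome 19, 29251803 to 29313095) read 2.77, 2.60 and 2.36 TPM in young, 2.10, 2.45 and 1.77 TPM in aged and 2.07, 2.03 and 2.17 TPM in treated replicates 1, 2 and 3. All treated libraries were below all young ones, and the aged range overlapped the young one. Neither the age difference (-0.24, 95% interval -0.56 to 0.07, limma adjusted p = 0.460) nor that of treated from young livers (-0.25, -0.56 to 0.07, adjusted p = 0.314) passed the test. Between treated and aged livers the Jak2 difference was -0.002 (95% interval -0.31 to 0.31, limma adjusted p = 0.996), and its sign turned in 6 of 16 alternatives, among them both scalings (0.08 and 0.11).

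Stat3 and Socs3, the transcription factor and the feedback inhibitor of the chain, both passed the test in treated against young livers. The 250 bases before a RefSeq start of each gene (GRCm38.p6, minus strand, printed 5′ to 3′) are shown because these 2 transcripts were high in the same libraries and Socs3 is itself a target of STAT3. Capitals mark a match to TTCNNNGAA, the core of the STAT element, which reads the same on both strands. Stat3 lies at chr11:100939541-100939790 and Socs3 at chr11:117969367-117969616.
Stat3: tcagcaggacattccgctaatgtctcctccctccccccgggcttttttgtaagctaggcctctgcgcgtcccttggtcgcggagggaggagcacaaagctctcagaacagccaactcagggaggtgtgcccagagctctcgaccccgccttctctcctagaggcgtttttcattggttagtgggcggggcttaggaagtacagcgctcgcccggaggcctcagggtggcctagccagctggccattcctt
Socs3: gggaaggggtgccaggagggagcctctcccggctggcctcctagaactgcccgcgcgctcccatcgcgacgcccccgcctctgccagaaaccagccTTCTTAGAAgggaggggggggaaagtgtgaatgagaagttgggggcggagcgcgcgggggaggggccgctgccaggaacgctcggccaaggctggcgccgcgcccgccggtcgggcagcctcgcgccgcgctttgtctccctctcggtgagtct
The Socs3 window holds 1 match, TTCTTAGAA, whose first base lies 154 bases before the start, and the windows of Stat3 and the other 6 genes hold none. The same letters occur in 7.02% of the 32851 RefSeq promoter windows of this length. RefSeq extends Socs3 to position 117970336, beyond its window, and Stat3 to position 100939594, inside its window. Each of these windows therefore belongs to 1 of the annotated starts of its gene.

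Stat3 (chromosome 11, 100886806 to 100939594) read 16.4, 14.8 and 15.3 TPM in young replicates 1, 2 and 3. It read 29.0, 26.9 and 17.4 TPM in aged and 38.6, 38.9 and 40.3 TPM in treated replicates. No 2 groups overlapped, and the rising order young, aged, treated without any overlap was met by 34 of the 10161 genes tested (0.335%). Genes whose groups were fully apart in another order are not in that count. Aged replicate 3 stood close to the young libraries, and the 3 treated libraries lay within a narrow range. Stat3 had a young mean of 15.5 ± 0.793 TPM and rose to 39.3 ± 0.941 TPM in treated livers, 2.53 times the young mean (log2 fold change 1.31 ± 0.16, limma adjusted p = 0.00215), and this difference was called in all 17 alternatives. The aged mean of 24.4 ± 6.20 TPM differed from the young mean by a log2 fold change of 0.61 ± 0.16, which did not pass (limma adjusted p = 0.101). Without aged replicate 3 it passed (log2 fold change 0.83, adjusted p = 0.00126). Treated against aged livers gave a log2 fold change of 0.71 ± 0.16, just short of the threshold (limma adjusted p = 0.0553). That difference passed without aged replicate 1 (adjusted p = 0.0281), without aged replicate 3 (0.0240) and with median-of-ratios scaling (0.0409), and its adjusted p over the 17 alternatives ranged from 0.0240 to 0.165.

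Socs3, which encodes the feedback inhibitor of the chain (chromosome 11, 117966079 to 117970336), read 4.44, 4.91 and 2.41 TPM in young and 6.98, 7.37 and 2.72 TPM in aged replicates 1, 2 and 3. The treated replicates read 18.6, 20.8 and 15.2 TPM, all above every untreated library, while young and aged libraries overlapped. Socs3 had a young mean of 3.92 ± 1.33 TPM and rose to 18.2 ± 2.84 TPM in treated livers, 4.64 times the young mean (log2 fold change 2.12 ± 0.36, limma adjusted p = 0.0128). The call was lost without treated replicate 2 (adjusted p = 0.0630). Against aged livers the treated mean was 3.20 times as high, a log2 fold change of 1.69 ± 0.36 that ranked 25th among the 10161 genes by size of rise but missed the threshold (limma adjusted p = 0.0571). Among the fits that leave out 1 library it passed without young replicate 3 (adjusted p = 0.0490) and without aged replicate 3 (0.0185), and the adjusted p ranged up to 0.192 over the alternatives. With age the log2 fold change of Socs3 was 0.43 (95% interval -0.38 to 1.24, limma adjusted p = 0.624). It ranged from 0.15 without young replicate 3 to 0.85 without aged replicate 3 (limma adjusted p = 0.0649 in the latter). Per unit of Stat3 transcript, Socs3 was at 0.271, 0.331 and 0.157 in young, 0.241, 0.274 and 0.157 in aged and 0.483, 0.534 and 0.376 in treated replicates 1, 2 and 3, so the treated libraries lay above the rest on this ratio too.

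**Figure D2:**
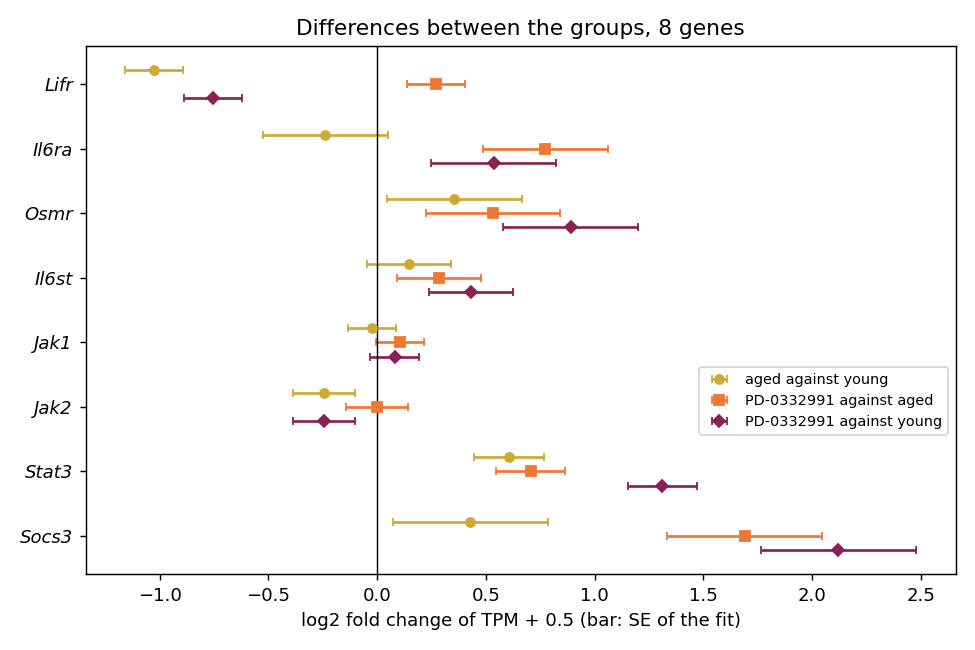
Log2 fold change of TPM + 0.5 (horizontal axis, bars are the SE of the fit) of each gene of the chain in the 3 comparisons. Lifr lies left of 0 in both comparisons with young livers, Stat3 and Socs3 lie right of 0 in all 3, and Jak1 lies at -0.02, 0.10 and 0.08.

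Counted over the chain, treated against young livers gave 2 called genes among the 7 other than Lifr, Stat3 and Socs3, against 6.88% of all genes tested, and 5 of the 7 had groups without overlap, against 33.9% of all genes. Without treated replicate 2 only Stat3 was called, and without aged replicate 3 Osmr was called as well. Osmr, also among the 5 without overlap, was tested only through its aged and treated libraries. In treated against aged livers none of the 7 was called by limma, where 1.45% of all genes were called. At an unadjusted p under 0.05 stood 3 of the 7 and 1854 of all 10161 genes tested. Without overlap were 3 of the 7 (Il6ra, Stat3 and Socs3), against 22.4% of all genes. With age none of the 7 was called by limma, where 1.1% of all genes were called, and only Stat3 was without overlap, against 18.4%. At an unadjusted p under 0.05 stood 1 of the 7 and 1523 of all 10161 genes. For treated against young livers 2524 of all genes had such a p. The unadjusted counts of the lists below stand beside these numbers too. Without aged replicate 3 the number called among the 7 was 1 with age and 2 with the drug. The median log2 fold change of the 7 was 0.15 with age, 0.53 for treated against aged and 0.54 for treated against young livers, beside -0.01, -0.09 and -0.10 over all genes tested. The comparisons share libraries and are not independent of each other.

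Aged replicate 3 stood apart from aged replicates 1 and 2 in this chain. It held the lowest aged value of Il6ra, Osmr, Il6st, Jak1, Jak2, Stat3 and Socs3, but not of Lifr. A list of STAT3 target and acute phase genes (38 tested) was graded over the aged libraries in its median, with replicate 3 the lowest. Its median log2 distance from the young mean was 1.04, 0.50 and -0.04 in aged replicates 1, 2 and 3. This distance was 0.97, 1.19 and 1.01 in treated ones and lay between -0.07 and 0.13 in the young libraries. Some members set aged replicate 1 apart instead, such as Saa1 with 6008, 222 and 123 TPM in aged replicates 1, 2 and 3. Others, such as Hamp, Junb, Pim1 and Cebpb, were highest in replicate 3 among the aged libraries. In aged replicates 1, 2 and 3 Hamp read 3277, 2075 and 4139 TPM and Junb 12.7, 11.9 and 23.8 TPM. Aged replicate 1 lay within the treated range on the target list but below every treated library in Stat3 and Socs3. Lifr was low in aged replicate 3 as in the other aged libraries.

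**Figure D3:**
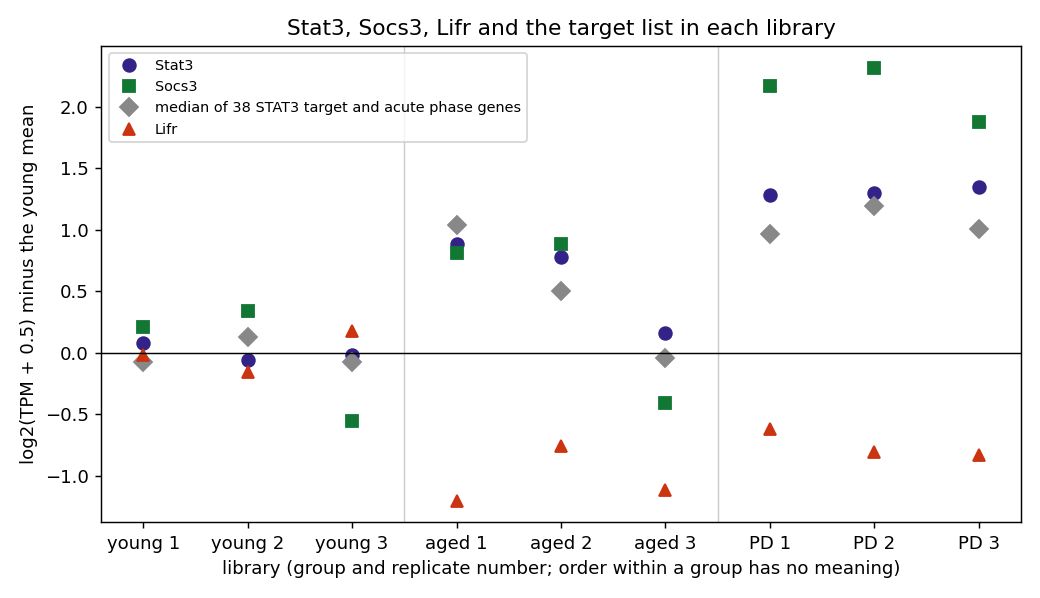
Log2(TPM + 0.5) minus the mean of the young libraries (vertical axis) for Stat3, Socs3, Lifr and the median of 38 STAT3 target and acute phase genes, in each of the 9 libraries. Aged replicate 3 lies near the young level for Stat3 and the median of the target list, whereas Lifr is below the young level in all 6 older libraries.

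Most ligands of the family had values of 0 or close to it in the tables. Albumin is listed at 0 too, so a 0 here says only how a gene is listed, not that its RNA was missing. Il6 was listed at 0 in 8 of the 9 libraries and at 0.234 TPM in treated replicate 3, Osm was listed at 0 in all 9, and Lif did not exceed 0.0568 TPM. Of the 10 ligand genes listed only Ctf1 and Cntf were high enough to be tested. Ctf1, which encodes cardiotrophin-1, a ligand of the Lifr and gp130 pair, fell from 4.64 ± 0.517 TPM in young to 2.40 ± 0.571 TPM in treated livers (log2 fold change -0.84 ± 0.16, limma adjusted p = 0.0150), with aged livers between them at 3.68 ± 0.266 TPM. The aged libraries lay below the young ones and above the treated ones without overlap, a falling order whose share over all genes was not counted. Neither step passed (limma adjusted p = 0.441 and 0.123). Ctf1 no longer passed against young livers without young replicate 1 (adjusted p = 0.0615) or 2 (0.0549). Cntf, the ciliary neurotrophic factor gene, was at 1.05 ± 0.0459, 1.32 ± 0.315 and 1.62 ± 0.361 TPM in young, aged and treated livers and did not pass in any comparison.

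The other receptors and the proteases that shed them had no called member among 4 tested, by limma, in any comparison (0 at an unadjusted p under 0.05 in each). Over all genes 1.1% were called with age, 1.45% for treated against aged and 6.88% for treated against young livers. Il11ra1, the interleukin-11 receptor chain, was at 19.4 ± 2.45, 22.4 ± 4.07 and 20.9 ± 2.09 TPM in young, aged and treated livers, and Adam17, the protease that releases the soluble IL-6 receptor, at 3.44 ± 0.443, 3.68 ± 0.607 and 3.35 ± 0.437 TPM. Among the other Janus kinases and STATs, 1 of 7 tested was called in treated against young livers, against 6.88% of all genes. None was called in the other comparisons (by limma, 2 at an unadjusted p under 0.05 with age and 1 with the drug). The called gene was Jak3, a kinase known mainly from lymphoid and myeloid cells. It had a young mean of 2.73 ± 0.04996 TPM and rose to 6.56 ± 1.08 TPM in treated livers. This was a difference of 1.12 ± 0.20 on the log2 scale (limma adjusted p = 0.0101). Its call was lost without treated replicate 2 (adjusted p = 0.0534), and its highest aged value, 6.78 TPM, was that of aged replicate 1. Tyk2, another kinase of the receptor chains, was at 5.01 ± 0.557, 4.01 ± 0.392 and 4.10 ± 0.531 TPM in young, aged and treated livers, and Stat5b, which carries the growth hormone signal, at 9.71 ± 1.21, 7.79 ± 1.22 and 7.89 ± 1.17 TPM. Neither passed in any comparison, nor did Stat2 and Stat6, whose group means lay between 12.8 and 14.6 TPM. The median log2 fold change of these 7 genes was -0.19 with age, 0.13 for treated against aged and -0.03 for treated against young livers.

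Among the other feedback inhibitors and phosphatases, 1 of 14 tested was called in treated against young livers, a share close to the 6.88% of all genes. None was called in the other comparisons (by limma, 1 at an unadjusted p under 0.05 in each). Over all genes 1.1% were called there with age and 1.45% for treated against aged livers. Ptpn1, the tyrosine phosphatase PTP1B, which acts on JAK2 among other substrates, had a young mean of 4.81 ± 0.327 TPM and rose to 8.63 ± 0.939 TPM in treated livers, a difference of 0.78 ± 0.16 on the log2 scale (limma adjusted p = 0.0183). It no longer passed without young replicate 1 (adjusted p = 0.0769) or 3 (0.0611) or treated replicate 2 (0.0839). Socs2 and Cish, which restrain growth hormone signalling through JAK2 and STAT5, did not share the rise of Socs3. Cish read 30.9, 32.1 and 10.4 TPM in young, 26.5, 34.9 and 1.28 TPM in aged and 4.62, 4.69 and 3.40 TPM in treated replicates 1, 2 and 3. Socs2 read 18.3, 21.4 and 20.5 TPM in young, 21.9, 48.7 and 1.02 TPM in aged and 15.5, 14.4 and 8.03 TPM in treated replicates. In both genes the treated libraries lay below the young ones, aged replicate 3 was the lowest of all 9 libraries, and no comparison passed (limma adjusted p = 0.297 for Cish and 0.778 for Socs2 in treated against young). Ghr, the growth hormone receptor, was at 162 ± 3.13, 135 ± 16.2 and 128 ± 4.47 TPM in young, aged and treated livers (limma adjusted p = 0.0673 for treated against young). The adaptors that lead from gp130 to the Ras-ERK pathway had no called member among 8 tested by limma (0, 1 and 2 at an unadjusted p under 0.05 with age, for treated against aged and for treated against young), and Ptpn11, which encodes the phosphatase SHP2, had group means between 8.49 and 9.17 TPM. Mapk3, the kinase ERK1, was at 17.3 ± 1.52, 17.8 ± 2.90 and 12.7 ± 3.16 TPM in young, aged and treated livers and Shc1, an adaptor, at 19.5 ± 1.03, 18.9 ± 0.827 and 18.6 ± 1.36 TPM.

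The STAT3 target and acute phase list, the longest of the lists, held the most called genes. Of 38 members tested, 11 rose in treated against young livers and none fell, with a median log2 fold change of 0.98, and 34 had groups without overlap, beside the 6.88% called and 33.9% without overlap of all genes. In treated against aged livers 3 rose and none fell, with a median of 0.43, and 8 had groups without overlap. Over all genes 1.45% were called and 22.4% were without overlap in that comparison. With age none was called by limma (11 at an unadjusted p under 0.05, against 1523 of all 10161 genes), with a median of 0.51. Again 8 had groups without overlap, against 18.4% of all genes. Many of these genes also respond to interleukin-1, NF-kB and C/EBP factors, so the list is not a readout of STAT3 alone. It was drawn up with earlier results of these data known and its direction is not independent evidence.

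Cebpb, a C/EBP factor that works with STAT3 on acute phase promoters, had a mean of 81.2 ± 9.15 TPM in aged livers and rose to 159 ± 27.3 TPM in treated ones (log2 fold change 0.96 ± 0.14, limma adjusted p = 0.0156, and 0.0577 without treated replicate 3). Junb, an AP-1 subunit and immediate early gene, read 12.7, 11.9 and 23.8 TPM in aged and 63.1, 61.4 and 60.2 TPM in treated replicates 1, 2 and 3 (log2 fold change 1.97 ± 0.32, limma adjusted p = 0.0252). The young libraries read 5.41 to 12.8 TPM for Junb, so the treated ones stood above all 6 others. Junb no longer passed against aged livers without aged replicate 2 (adjusted p = 0.0993) or treated replicate 1 (0.0772), 2 (0.109) or 3 (0.0948), or with no filter on low values (0.0521). Pim1, a kinase gene switched on by STAT3, was at 6.50 ± 1.29 TPM in aged livers and rose to 10.9 ± 0.731 TPM in treated ones (log2 fold change 0.72 ± 0.14, limma adjusted p = 0.0320). That call was kept only without aged replicate 3 among the 9 fits that leave out 1 library, and its adjusted p ranged up to 0.129. For treated against aged livers the list had 7 called genes when aged replicate 1 was dropped, 1 when aged replicate 2 or treated replicate 1 or 2 was, and 0 when treated replicate 3 was.

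Against young livers Cebpb, Junb and Pim1 were called in all 17 alternatives, with log2 fold changes of 0.96, 2.73 and 0.99 (limma adjusted p = 0.0042 each, rounded). The other 8 that rose were Nnmt, a methyltransferase gene (81.1 ± 25.8 to 307 ± 50.6 TPM), the fibrinogen chain gene Fgg (2195 ± 200 to 3790 ± 85.4 TPM), the hepcidin gene Hamp (2222 ± 194 to 4201 ± 440 TPM), Lbp (29.1 ± 2.86 to 76.0 ± 11.5 TPM), Lrg1 (351 ± 97.9 to 1054 ± 209 TPM), Saa4 (83.2 ± 11.9 to 284 ± 29.4 TPM), the NF-kB cofactor gene Bcl3 (15.1 ± 0.958 to 48.0 ± 5.92 TPM) and Tifa, an adaptor of NF-kB signalling (4.01 ± 0.374 to 59.5 ± 23.5 TPM). Those of Nnmt and Tifa had limma adjusted p of 0.00949 and 0.0195. Each of these 8 lost its call in at least 1 alternative, with an adjusted p of at most 0.0517 for Nnmt and 0.210 for Hamp. Leaving out young replicate 1, 2 or 3 gave 4, 7 and 5 called genes, leaving out treated replicate 1, 2 or 3 gave 6, 3 and 4, and 20 and 21 were called when aged replicate 1 or 3 was dropped. With age, 13 were called when aged replicate 3 was dropped and 1 when aged replicate 2 was.

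Several acute phase genes differed widely within groups and did not pass the test. Saa1, a serum amyloid A gene, read 38.3, 1482 and 52.3 TPM in young, 6008, 222 and 123 TPM in aged and 3099, 7204 and 2730 TPM in treated replicates 1, 2 and 3. Saa2, a near copy of Saa1 with which it may share reads, followed the same order of libraries within each group. Lcn2, which encodes lipocalin-2, read 1.04, 19.5 and 1.66 TPM in young, 481, 24.1 and 7.75 TPM in aged and 146, 504 and 124 TPM in treated replicates. For both Saa1 and Lcn2 every treated library lay above every young one, and aged replicate 1 lay within the treated range (limma adjusted p = 0.206 and 0.115 for treated against young). Less variable members that did not pass were Fgb, another fibrinogen chain (2115 ± 227, 2781 ± 870 and 3476 ± 172 TPM in young, aged and treated livers, limma adjusted p = 0.0646 for treated against young), the haptoglobin gene Hp (2480 ± 729, 3904 ± 2611 and 5730 ± 988 TPM) and the hemopexin gene Hpx (3495 ± 1029, 4787 ± 2220 and 6089 ± 1135 TPM). Cebpd, a C/EBP factor induced by STAT3 (2.25 ± 0.138, 2.77 ± 0.597 and 3.68 ± 0.993 TPM), and Il1rn, the interleukin-1 receptor antagonist gene (0.673 ± 0.0951, 0.918 ± 0.638 and 1.5004 ± 0.658 TPM), did not pass either. Steap4 and Il1r1, the interleukin-1 receptor gene, were chosen here after their values were seen. Il1r1 read 29.7, 28.1 and 4.87 TPM in aged and 28.0, 33.3 and 26.2 TPM in treated replicates 1, 2 and 3, against 5.35 to 8.26 TPM in young livers. Steap4 read 133, 105 and 17.2 TPM in aged replicates 1, 2 and 3, against 20.9 to 29.5 TPM in young and 160 to 218 TPM in treated livers. Both genes placed aged replicate 3 near or below the young libraries, as Stat3 and Socs3 did.

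**Figure D4:**
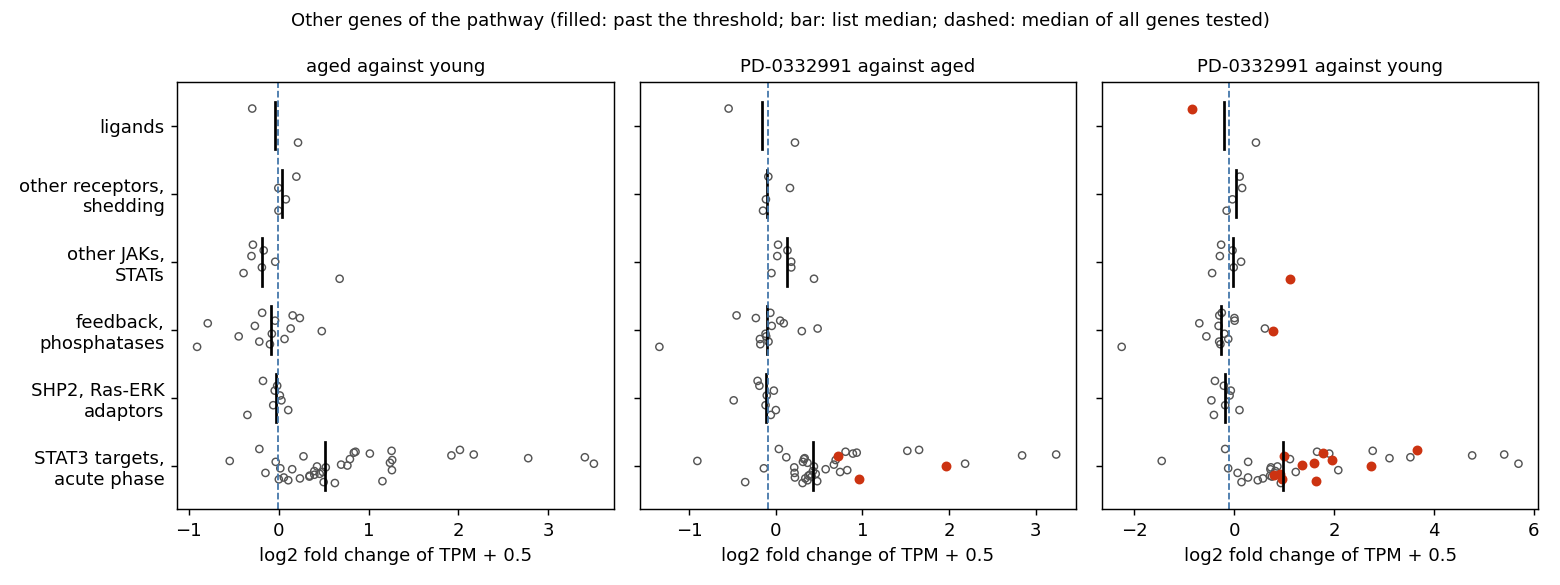
Log2 fold change of TPM + 0.5 (horizontal axes) of the tested genes of 6 pathway lists (rows) in the 3 comparisons (panels), with genes past the threshold filled, a bar at each list's median and a dashed line at the median of all genes tested. The median of the STAT3 target and acute phase list lies at 0.51, 0.43 and 0.98, with 0, 3 and 11 filled points.

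Other cells of the liver also express parts of this chain. Summed neutrophil markers (11 found) lay between 3.06 and 4.004 TPM in young, 9.77 and 26.3 TPM in aged and 24.5 and 35.02 TPM in treated libraries. In treated against young livers 3 of the 3 tested, S100a8, S100a9 and Retnlg, were called higher, against 263 of all 10161 genes. Retnlg lay below 1 TPM in every young library and was tested only through aged and treated ones. The highest aged sum was that of replicate 1. The other 8 found were not high enough to be tested. Of these Mpo, Ltf, Ngp and Camp were listed at 0 in 8, 6, 8 and 7 of the 9 libraries, while Elane, Mmp9 and Cxcr2 were above 0 in all 9, with highest values of 0.493, 0.456 and 0.758 TPM, and Mmp8 reached 0.623 TPM in a treated library. From aged to treated livers the means of Elane (0.364 to 0.129 TPM), Cxcr2 (0.574 to 0.428 TPM), Camp, Ltf and Mpo fell. Those of Mmp8, Mmp9 and Ngp rose. Kupffer cell and macrophage markers (13 found) lay between 172 and 260 TPM in young, 166 and 237 TPM in aged and 167 and 171 TPM in treated libraries. In treated against young livers 5 of them were called lower, against 436 of all 10161 genes. Sinusoidal endothelial markers ranged from 100 to 108 TPM in young, 86.9 to 114 TPM in aged and 83.7 to 102 TPM in treated libraries, stellate cell markers from 143 to 152, 105 to 154 and 93.5 to 138 TPM, bile duct markers from 17.4 to 21.0, 10.4 to 22.9 and 9.17 to 14.4 TPM, and lymphocyte markers from 5.81 to 7.90, 2.72 to 9.49 and 2.67 to 4.397 TPM. Among the stellate markers the collagen gene Col3a1 was called lower with age (5.44 ± 0.978 to 2.13 ± 0.389 TPM), and Col3a1 and Col1a2 were called lower in treated against young livers. The endothelial marker Lyve1 was called lower with age (2.07 ± 0.489 to 0.643 ± 0.417 TPM) and the bile duct marker Sox9 higher (0.577 ± 0.175 to 1.702 ± 0.397 TPM). Over all 10161 genes 46 were called lower and 66 higher with age. Lyve1 was the only endothelial marker called among 13 tested, whose median log2 fold change was -0.08. Among the other bile duct markers the means of Krt7, Krt19, Epcam and Spp1 fell with age. Those of Tspan8 and Cftr rose. Sox9 lay below 1 TPM in every young library, so it was tested only through the older groups, where it was higher. Of the 10 hepatocyte markers Tdo2 and Ttr were called lower in treated against young livers (598 ± 45.1 to 396 ± 59.2 TPM and 7682 ± 430 to 5811 ± 535 TPM), against 436 of all 10161 genes. Tat (365 ± 58.5 to 707 ± 80.0 TPM) and Hnf4a (109 ± 12.8 to 160 ± 7.18 TPM) had higher means in treated livers and were not called. In this comparison 4 of the 10 lay above 0, with a median log2 fold change of -0.09 beside -0.10 over all genes. The part of these cells in the levels of Lifr, Socs3, Stat3, Il6ra, Osmr and Jak3 was not tested.

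The genes whose pattern over the 9 libraries lay closest to that of Lifr were found by the root mean square difference of their mean-centred log2(TPM + 0.5) values, among tested genes of 5 TPM or more on average. Sparc, which encodes a matrix-binding protein, was the nearest (0.18, where the spread of Lifr itself was 0.46), with means of 21.6, 13.4 and 14.1 TPM in young, aged and treated livers. It was followed by Keg1 (189, 119 and 125 TPM), Serpina1e (8572, 5829 and 5468 TPM), Wbp5 (15.5, 8.97 and 8.79 TPM), Arhgap29 (11.5, 6.88 and 6.35 TPM) and the receptor gene Gpr146 (26.1, 17.9 and 17.6 TPM), at distances from 0.19 to 0.23. Serpina1e belongs to a family of near-identical copies between which reads can be split.

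For Socs3 the same measure gave less close neighbours, at 0.43 to 0.49 where the spread of Socs3 was 1.01. They were Tacc2 (3.08, 9.13 and 18.9 TPM in young, aged and treated livers), the small heat shock protein genes Hspb8 (83.4, 124 and 234 TPM) and Hspb1 (43.1, 68.9 and 177 TPM), Ang, a secreted ribonuclease (255, 374 and 673 TPM), the acute phase gene Serpina3n (113, 235 and 364 TPM) and the co-chaperone gene Dnajc12 (7.41, 11.2 and 20.3 TPM). Of these only Serpina3n belongs to the target list.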

How the data were processed

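RNA sequencing of liver was available as 9 tables, 1 per library, in 3 groups of 3 taken from the sample titles. Per the labels, libraries were paired-end and made with an Illumina TruSeq kit. Per the submitters' processing notes, the authors used kallisto and mm10. Its version, the annotation and strand use are not given in these sources. Values are TPM as the authors deposited them, so no count model applied and depth is unknown. Of 23444 rows, 4 with a repeated symbol were left out, and no 2 libraries were identical.

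The members and gene lists were chosen with earlier results of these data known. All 9 libraries were fitted with limma 3.58.1 (R 4.3.3, trend and robust, group as the only term, two-sided) on log2(TPM + 0.5), over genes that reached 1 TPM in 3 or more libraries, with Benjamini-Hochberg adjustment over all genes tested. The fit was tested on simulated data. Since separate mice are not stated, p-values cover only the spread among these libraries, which may be technical. Named genes were the 8 members, a fixed set of pathway genes, up to 4 called and 2 uncalled genes per list and comparison, and the 6 nearest genes to Lifr and to Socs3. The other called genes of the target list (Fgg, Hamp, Lbp, Lrg1, Saa4, Bcl3 and Tifa), Steap4, Il1r1 and the markers named were added after their values were seen. Alternatives were pseudocounts of 0.1 and 1, 2 other filters, 2 scalings, a fit on 6 libraries, a replicate block, and leaving out each library. Positions and promoters are from RefSeq on GRCm38.p6, the build of mm10, and all 8 symbols matched. Protein sequences were not used here, and the values of 1 gene of the pathway lists are not reported here.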

Additional observations from a re-analysis of the deposited data

How the results depend on the processing

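The alternatives changed how many genes were called more than the direction of the members. The 112 genes called with age became 62 with no filter and 49 in a fit on the 6 libraries compared, and 15 (without young replicate 1) to 696 (without aged replicate 3) when 1 library was left out. The 147 called for treated against aged became 29 with no filter and 25 on 6 libraries, and 7 (without treated replicate 2) to 392 (without aged replicate 3). The 699 called for treated against young became 1282 on 6 libraries, and 151 (without treated replicate 2) to 1263 (without aged replicate 3). Among the 7 members other than Lifr, the number called was 0 to 1 with age, 0 to 2 for treated against aged and 1 to 3 for treated against young when 1 library was left out, and for treated against aged it was 1 with median-of-ratios scaling. In the STAT3 target list leaving out 1 library gave 0 to 13, 0 to 7 and 3 to 21 genes in these comparisons, and the list had 1 called gene for treated against aged with no filter and 22 for treated against young on 6 libraries.

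The replicate numbers are shared by the groups, but the labels do not tie them to a batch or litter, and deviations of same-numbered libraries correlated over genes with r from -0.22 to 0.17, so they were not read as pairs. With the replicate number as a block, 60 genes were called for treated against aged, of them 1 of the 7 members (Socs3, limma adjusted p = 0.00695) and 1 of the target list. Junb (adjusted p = 0.0733) and Pim1 (0.0680) did not pass there. The blocked fit called 91 genes with age and 492 for treated against young, where 0 and 2 of the 7 members were called. No called difference of a member changed direction under any alternative. Il6ra, Jak2, Osmr and Ctf1 were not tested with the filter of 5 TPM, nor Osmr in 3 fits that left out a library in which it reached 1 TPM. Osmr and the ligands that were not tested have values near 0, where unknown depth limits what can be read.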
